A study of Homo sapiens with 8 samples.

Results

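The 10 genes described here act in the Wnt pathway, either as receptors and secreted regulators at the cell surface or as its nuclear effector and feedback genes. They are LGR5, LGR4, NDP, DKK1, DKK3, SFRP1, AXIN2, LEF1, RNF43 and ZNRF3, taken by symbol, and they are 10 of 14884 genes that the platform annotation names unambiguously among 53617 transcript clusters (sets of probes read together as 1 transcript). LGR5 and NDP were picked for their changes on these same arrays, so their values are given as a description with no test. The other 8 genes were chosen for their roles, with earlier results of these data known, and were tested. Each of the 10 was read by exactly 1 transcript cluster.

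The study asked what follows when HDAC2, a class I histone deacetylase, is lowered in glioblastoma cells. RNA of A172, an established human glioblastoma line, was read on 8 Affymetrix Human Gene 2.0 ST arrays, which measure transcripts by hybridization and not by sequencing. The cells carried a lentiviral TetON vector, expressing on doxycycline a control shRNA (shControl) or an shRNA against HDAC2 (shHDAC2), and had been kept under puromycin selection. Each construct was harvested without doxycycline, DOX(-), or after 2 days of it, DOX(+), which gave 4 groups of 2 arrays.

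All 4 groups thus share viral infection and drug selection, and uninfected cells were not analysed here. The titles call the arrays of a group biological replicates, and nothing else says that they came from separate cultures, so a p-value measures the spread between these arrays, which may be technical. The titles and the treatment field, which give the same construct for every sample, set the groups. The source field instead names the control virus for all 4 DOX(-) samples and the HDAC2 virus for all 4 DOX(+) samples, so if it were right the constructs of shControl DOX(+) and shHDAC2 DOX(-) would be exchanged, and with them every comparison that uses these groups. Every value is a log2 signal after RMA normalization by the authors, so a difference of 1 is a 2-fold difference. Levels are compared between arrays and never between genes, because probes differ in how brightly they read. In bulk RNA, fewer cells of a type and less RNA per cell cannot be told apart.

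The pair of shHDAC2 DOX(-) arrays stood apart from the rest. Over all clusters they correlated with the other 6 arrays at 0.95004 to 0.95385, against 0.98201 to 0.99109 among those 6 and 0.98554 with each other. HDAC2, the shRNA target, read 5.69 and 5.80 in shHDAC2 DOX(-) cells and 4.95 and 5.34 on doxycycline. It read 6.42 and 6.30 in shControl cells without and 6.14 and 6.15 with the drug, so every array titled shHDAC2 lay below every array titled shControl. Its fall with doxycycline in shHDAC2 cells was 0.60 on the log2 scale (SE 0.142, limma adjusted p = 0.0104), and it was already 0.61 lower than in shControl cells without the drug (adjusted p = 0.00917). The first call was lost without the second shHDAC2 DOX(-) array (adjusted p = 0.0569) or the first shHDAC2 DOX(+) array (0.0689), and the latter without the first shControl DOX(-) array (0.0627) or the first shHDAC2 DOX(-) array (0.0526). On doxycycline the constructs differed by -0.999 (adjusted p = 0.00724), a call lost without either shControl DOX(+) array (0.0597 and 0.0618) or the first shHDAC2 DOX(+) array (0.0531). In shControl cells the difference with doxycycline was -0.21 (adjusted p = 0.945), and that between the responses, -0.38, did not pass (adjusted p = 0.234). Glioma markers VIM (9.34 to 10.3), EGFR (8.36 to 9.33) and CD44 (8.19 to 8.89) were high on every array. GFAP (4.53 to 5.01) and OLIG2 (4.06 to 4.40) lay above the median cluster signal of 3.66 throughout. The epithelial markers EPCAM and KRT19 did so as well, so lying above that median names no cell type. Of the 10 measured glioma and astrocytic markers 8 had means above that median, and the exceptions, S100B (2.58 to 3.26) and AQP4 (2.20 to 3.15), lay below it on every array. Of the epithelial markers 4 of 5 were measured, all with a mean above that median. On the log2 scale their summed signal was 7.02 to 7.23 in shHDAC2 DOX(-) cells, 10.1 to 10.3 in shHDAC2 DOX(+) cells and 10.4 to 10.8 in shControl cells. This sum was carried by the keratin KRT18 (6.24 to 10.7 over the 8 arrays), and KRT8 spanned 4.22 to 6.16, whereas EPCAM (3.77 to 4.21) and KRT19 (3.94 to 4.51) varied little. The sum moved with the same arrays as most results below, and its part in them was not tested. The summed glioma markers, with 10 of 12 measured, lay at 10.7 in shHDAC2 DOX(+) cells and at 11.1 to 11.2 elsewhere. Of the neuronal markers 4 of 6 were measured, 3 of them with a mean above the median. The measured blood and endothelial markers, 1 of 3 and 2 of 3, had means below it.

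Wnt proteins bind a Frizzled receptor together with LRP5 or LRP6, and the signal stabilises β-catenin, which enters the nucleus and acts with TCF/LEF factors on target genes. Without it, TCF/LEF factors sit with TLE corepressors, which recruit histone deacetylases. LGR4 and LGR5 bind R-spondins and neutralise RNF43 and ZNRF3, membrane E3 ubiquitin ligases that clear Frizzled receptors from the surface. DKK1 blocks LRP5 and LRP6, SFRP1 binds Wnt proteins outside the cell, and DKK3 is a divergent member of the dickkopf family. Norrin, the product of NDP, is no Wnt protein but signals through FZD4 with LRP5 and TSPAN12. AXIN2 is a scaffold of the complex that degrades β-catenin and a widely used target gene of the pathway.

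The promoter of DKK1 is shown because DKK1 is itself a described target of β-catenin and had the widest difference among the 8 tested genes. RefSeq promoters (GRCh38.p14, 250 bases before to 50 after the start of transcription) were matched for 4 of the 10 genes, namely DKK1, LEF1, LGR4 and RNF43, the last with an alternative start. They were searched on both strands for the TCF/LEF core written as CTTTG followed by any pair of the letters A and T, and separately for the TATA box letters TATAAA. Among these promoters only that of DKK1 held either. The core occurs in 13.8% of all 35116 promoters in the table and TATAAA in 11.5%, so both are common, and a match is a description of the letters and not a site. Capitals mark the motif in the following 30-base stretches of the plus strand of chromosome 10, the strand of the gene.
DKK1 core 95 bases before the start, chr10:52314175-52314204: ccctcccagcgCTTTGAAatcccatcccgg
DKK1 core 76 bases before the start, chr10:52314194-52314223: tcccatcccggCTTTGTTgtctccctccca
DKK1 TATAAA 30 bases before the start, chr10:52314239-52314268: ccgggcccgcggTATAAAggcagccgcggt
The first and second stretches overlap.

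LGR5 (chromosome 12, cluster 16754134), the R-spondin receptor that marks stem cells of the intestine and other epithelia, was high in shHDAC2 cells on doxycycline and in no other group. It read 3.93 and 3.95 in shControl DOX(-) cells, 3.64 and 3.94 in shControl DOX(+) cells, 3.43 and 3.22 in shHDAC2 DOX(-) cells, and 6.35 and 6.44 in shHDAC2 DOX(+) cells. Both shHDAC2 DOX(+) arrays lay above the other 6, and both shHDAC2 DOX(-) arrays below all others, close to the median cluster signal. With doxycycline the mean was 3.07 higher on the log2 scale in shHDAC2 cells and 0.15 lower in shControl cells, where the arrays overlapped. The doxycycline responses of both constructs thus differed by 3.23. Measured against shControl cells on the same drug, LGR5 was 2.61 higher, and without the drug it was 0.62 lower. Where one side of a difference lies near or below the median cluster signal, as here, no fold is given, since the array may not read how low the level was.

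NDP (chromosome X, cluster 17110315) showed another pattern, with the shHDAC2 DOX(-) arrays apart from the rest. The arrays gave 2.89 and 3.37 in shControl DOX(-), 3.06 and 2.88 in shControl DOX(+), 7.99 and 7.77 in shHDAC2 DOX(-) and 2.90 and 3.07 in shHDAC2 DOX(+) cells. Thus 6 arrays lay below the median cluster signal and overlapped, and the shHDAC2 DOX(-) pair stood far above them. Doxycycline went with a difference of -4.90 in shHDAC2 cells and of -0.16 in shControl cells. On doxycycline both constructs differed by 0.01, while without it shHDAC2 cells were 4.75 higher, the low side lying below the median cluster signal in each case. LGR5 and NDP were thus set apart by different groups, LGR5 by shHDAC2 DOX(+) and NDP by shHDAC2 DOX(-).

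**Figure D1:**
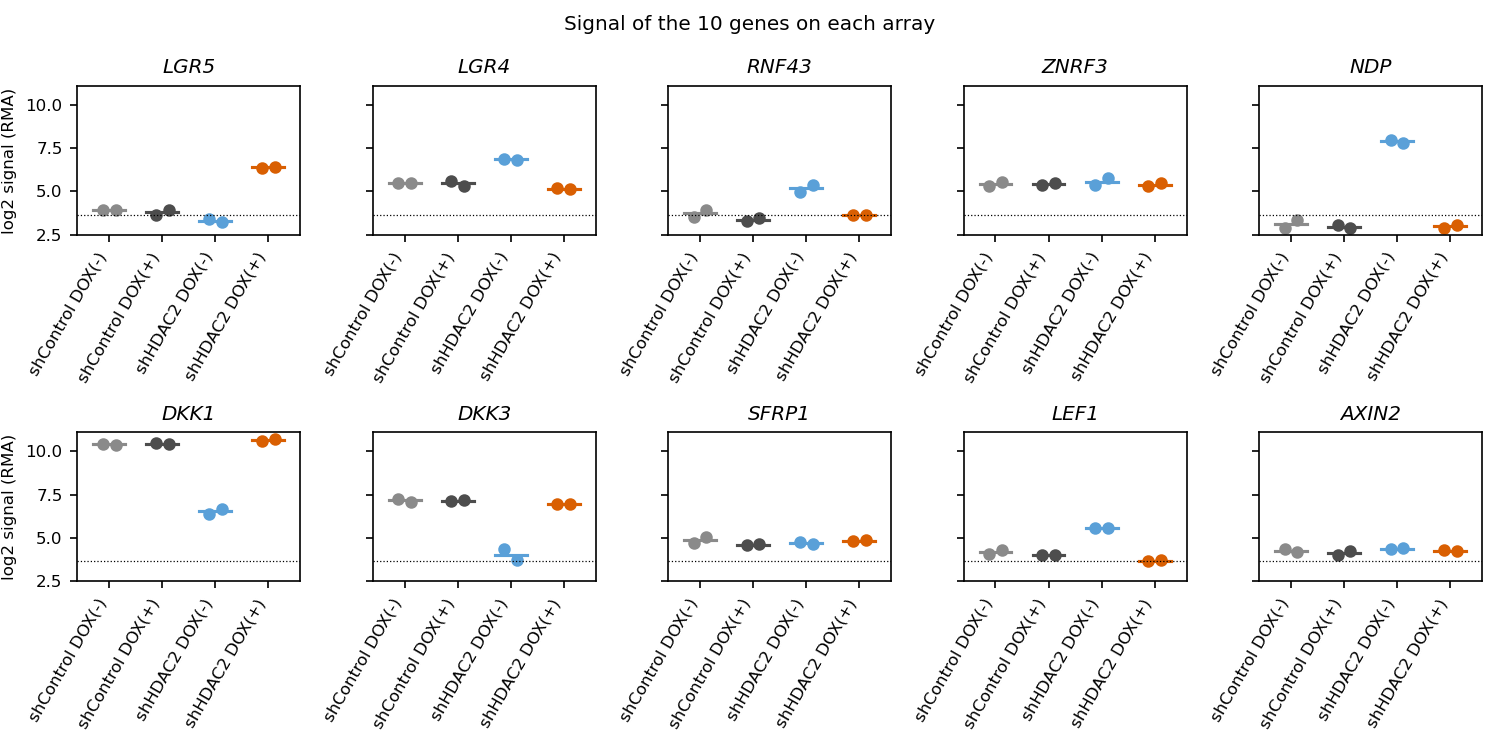
Log2 signal after RMA (vertical axis) of each of the 10 genes in the 4 groups (horizontal axis), with a point for each array, a short bar for the group mean and a dotted line at the median cluster signal of 3.66. LGR5 is high in shHDAC2 DOX(+) cells (6.35 and 6.44), whereas NDP, DKK1, DKK3, LGR4, RNF43 and LEF1 stand apart in shHDAC2 DOX(-) cells.

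The LGR5 homologue LGR4 (chromosome 11, cluster 16736821), a broadly expressed R-spondin receptor, did not share the LGR5 pattern. Its signals were 5.51 and 5.51 in shControl DOX(-), 5.60 and 5.34 in shControl DOX(+), 6.87 and 6.82 in shHDAC2 DOX(-) and 5.20 and 5.12 in shHDAC2 DOX(+) cells. The shHDAC2 DOX(-) arrays were the highest and the shHDAC2 DOX(+) arrays the lowest, with no overlap to any other group. LGR4 fell by 1.68 with doxycycline in shHDAC2 cells (SE 0.120, 3.21-fold, limma adjusted p = 8.31e-06). In shControl cells the difference was -0.04 (adjusted p = 0.989), and the responses of both constructs differed by -1.64 (SE 0.169, adjusted p = 0.000187). Within shHDAC2 cells on doxycycline, therefore, the LGR5 mean was higher and the LGR4 mean lower than without the drug.

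RNF43 (chromosome 17, cluster 16847095), one of the E3 ligases that LGR4 and LGR5 neutralise, moved in the direction of LGR4. It read 3.54 and 3.96 in shControl DOX(-), 3.27 and 3.45 in shControl DOX(+), 4.99 and 5.39 in shHDAC2 DOX(-) and 3.65 and 3.63 in shHDAC2 DOX(+) cells. The shHDAC2 DOX(-) arrays were above the other 6, which spanned 3.27 to 3.96. With doxycycline RNF43 fell by 1.54 in shHDAC2 cells (SE 0.174, adjusted p = 0.000143), to the median cluster signal. Its difference in shControl cells was -0.39 (adjusted p = 0.91), and that between the responses -1.16 (SE 0.246, adjusted p = 0.00981).

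ZNRF3 (chromosome 22, cluster 16928699), the partner ligase of RNF43, passed the test in no comparison. Its arrays spanned 5.32 to 5.52 in shControl DOX(-), 5.34 to 5.49 in shControl DOX(+), 5.35 to 5.78 in shHDAC2 DOX(-) and 5.30 to 5.49 in shHDAC2 DOX(+) cells, and all groups overlapped. The difference with doxycycline in shHDAC2 cells was -0.17 (95% interval -0.53 to 0.19, adjusted p = 0.482). ZNRF3-AS1, the antisense transcript of the locus, read 2.29 to 2.79 and passed in no comparison either.

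The secreted inhibitor DKK1 (chromosome 10, cluster 16705011) was low in shHDAC2 DOX(-) cells alone. Its signals were 10.43 and 10.38 in shControl DOX(-), 10.47 and 10.41 in shControl DOX(+), 6.40 and 6.66 in shHDAC2 DOX(-) and 10.57 and 10.69 in shHDAC2 DOX(+) cells. The other 6 arrays lay within 10.4 and 10.7, with the shHDAC2 DOX(+) pair at the top of that range. DKK1 rose by 4.10 with doxycycline in shHDAC2 cells (SE 0.122, 17.2-fold, adjusted p = 5.01e-08), against 0.03 in shControl cells (adjusted p = 0.993). The difference between the responses was 4.08 (SE 0.173, adjusted p = 9.3e-07).

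DKK3 (chromosome 11, cluster 16735895) followed DKK1 with more spread. Its arrays read 7.27 and 7.10 in shControl DOX(-), 7.11 and 7.17 in shControl DOX(+), 4.37 and 3.70 in shHDAC2 DOX(-) and 6.94 and 6.96 in shHDAC2 DOX(+) cells. The shHDAC2 DOX(-) pair was again the lowest, and its arrays were further from each other than those of any other group. DKK3 rose by 2.92 with doxycycline in shHDAC2 cells (SE 0.190, adjusted p = 4.78e-06), and the difference between the responses was 2.96 (SE 0.269, adjusted p = 8.62e-05). SFRP1 (chromosome 8, cluster 17076609), an inhibitor that sequesters Wnt proteins, passed in no comparison. Its signals spanned 4.60 to 5.05 over the 8 arrays, and its difference with doxycycline was 0.13 in shHDAC2 cells (95% interval -0.18 to 0.43, adjusted p = 0.544).

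LEF1 (chromosome 4, cluster 16978834), a DNA-binding partner of β-catenin and itself a target gene of the pathway, was highest in shHDAC2 DOX(-) cells. The arrays gave 4.07 and 4.30 in shControl DOX(-), 4.002 and 3.990 in shControl DOX(+), 5.55 and 5.59 in shHDAC2 DOX(-) and 3.64 and 3.71 in shHDAC2 DOX(+) cells. No array of one construct overlapped with an array of the other, the shHDAC2 DOX(-) pair lying above and the shHDAC2 DOX(+) pair below all 4 shControl arrays. LEF1 fell by 1.89 with doxycycline in shHDAC2 cells (SE 0.116, adjusted p = 3.23e-06), and the responses differed by -1.71 (SE 0.164, adjusted p = 0.000119). LEF1-AS1, transcribed from the opposite strand, read 2.57 to 3.03 and passed in no comparison.

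AXIN2 (chromosome 17, cluster 16847933) passed in none. Its signals were 4.34 and 4.19 in shControl DOX(-), 4.03 and 4.27 in shControl DOX(+), 4.34 and 4.41 in shHDAC2 DOX(-) and 4.28 and 4.26 in shHDAC2 DOX(+) cells, a span in which both constructs overlapped. Doxycycline went with a difference of -0.11 in shHDAC2 cells (95% interval -0.38 to 0.17, adjusted p = 0.567). The responses differed by 0.01 (95% interval -0.38 to 0.40, adjusted p = 0.981), so a change of the size seen for LEF1 or RNF43 lay outside the interval.

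With doxycycline in shHDAC2 cells, 5 of the 8 tested genes passed, where 31.9% of all genes did. DKK1 and DKK3 were higher (15.7% of all genes) and LGR4, RNF43 and LEF1 lower (16.1%). In shControl cells 0 of the 8 passed, against 0% of all genes by limma. At an unadjusted p under 0.05 the count was 0 of the 8 and 821 of all genes, and by the methods' t-test (a two-tailed unpaired test for each gene) 0 and 927. The same 5 genes, in the same directions, differed between the doxycycline responses, with 20.8% of all genes passing, 10.2% higher and 10.7% lower.

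Without doxycycline, shHDAC2 cells already differed from shControl cells at these 5 genes, where 31.4% of all genes passed. LGR4 (1.33, adjusted p = 3.81e-05), LEF1 (1.39, adjusted p = 2.43e-05) and RNF43 (1.44, adjusted p = 0.000235) were higher, a direction that 14.2% of all genes took. DKK1 was 14.7-fold lower (-3.88, adjusted p = 5.73e-08) and DKK3 was lower as well (-3.15, adjusted p = 3.25e-06), with 17.2% of all genes lower. SFRP1 (-0.15, adjusted p = 0.482), AXIN2 (0.11, adjusted p = 0.568) and ZNRF3 (0.14, adjusted p = 0.568) did not pass. This comparison and that of doxycycline in shHDAC2 cells use the same shHDAC2 DOX(-) arrays, so the opposite signs of their differences come from shared measurements.

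On doxycycline, a comparison in which that pair enters only through the shared estimate of the spread, 0 of the 8 tested genes passed between shHDAC2 and shControl cells by limma, against 4.23% of all genes, 0.88% higher and 3.35% lower. That share rests on 629 genes, a count that fell to 117, 118 or 121 without the first shHDAC2 DOX(+) array, the first or the second shControl DOX(+) array, and to 326 without the second shHDAC2 DOX(+) array. At an unadjusted p under 0.05 the count by limma was 2, LGR4 and LEF1. By the methods' t-test it was 3, namely LEF1, SFRP1 and DKK3, and not LGR4. LGR4 was -0.31 (95% interval -0.58 to -0.04, adjusted p = 0.213) and LEF1 -0.32 (95% interval -0.58 to -0.06, adjusted p = 0.184), with both shHDAC2 arrays below both shControl arrays. DKK1 was 0.20 (adjusted p = 0.453), DKK3 -0.19 (adjusted p = 0.666), SFRP1 0.23 (adjusted p = 0.421), RNF43 0.28 (adjusted p = 0.445), AXIN2 0.12 (adjusted p = 0.676) and ZNRF3 -0.02 (adjusted p = 0.963). The intervals of these differences reached at most 0.68 in either direction. LGR5 differed by 2.61 here, a description only, since it was picked for its changes on these arrays and the 8 tested genes were not. With both shHDAC2 DOX(-) arrays left out of the model, 0 of the 8 passed as well, in this comparison and for doxycycline in shControl cells.

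**Figure D2:**
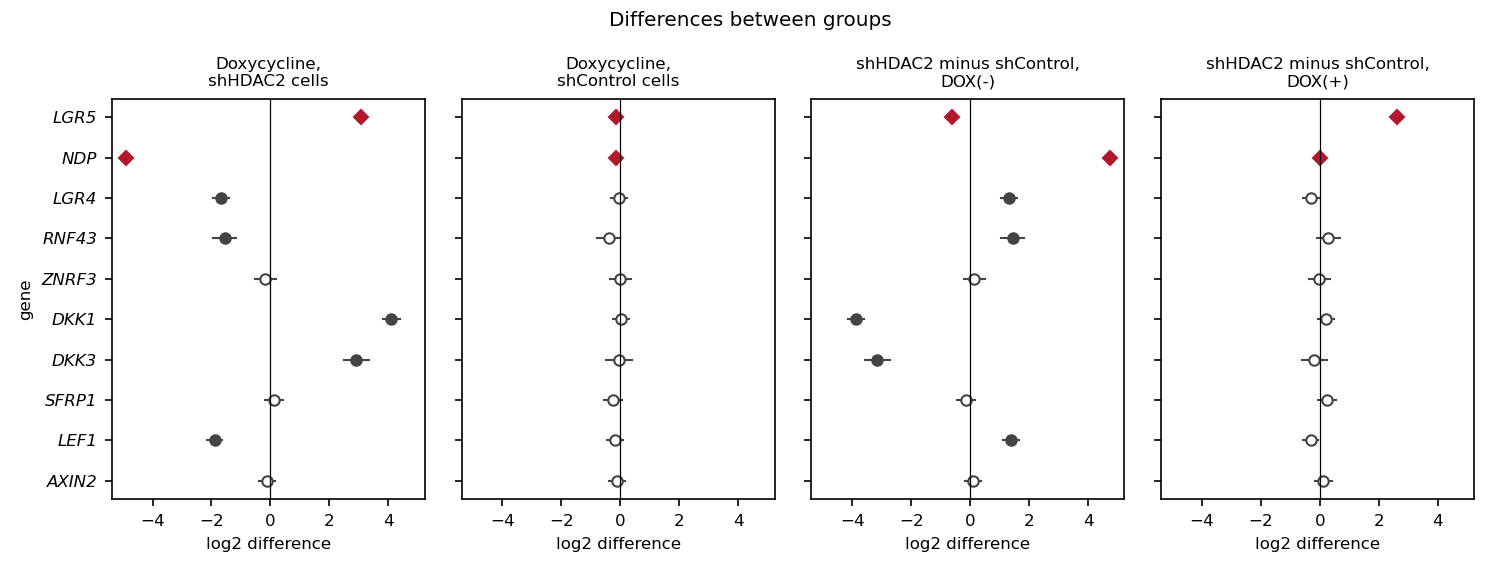
Log2 difference between groups (horizontal axis) for each of the 10 genes (vertical axis) in 4 comparisons, with 95% intervals for the 8 tested genes, filled circles where limma's adjusted p was under 0.05 and open circles elsewhere. Red diamonds are LGR5 and NDP, which were picked for their changes on these arrays and were not tested. LGR5 lies at 3.07 in the leftmost panel and at 2.61 in the rightmost, where the other 9 genes lie between -0.32 and 0.28.

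The wider pathway was followed in 7 lists of 124 genes, of which 81 were measured under a single symbol. Some genes stand in more than 1 list, and LGR5 and NDP are left out of every count. With doxycycline in shHDAC2 cells the counts are to be read against the 15.7% of all genes that were higher and the 16.1% that were lower, and nothing is called particular to a list. Among R-spondins, their receptors and ligases, LGR4 and RNF43 were the 2 of 8 that passed, lower with doxycycline in shHDAC2 cells (31.9% of all genes passed in either direction) and higher in shHDAC2 cells without it (31.4%). LGR6 (3.41 to 4.07 over the 8 arrays), the remaining receptor, and RSPO1 to RSPO4, the ligands, passed in no comparison. Of 21 genes for Wnt ligands and their secretion only WNT2 and WLS were measured. WLS, the carrier that takes Wnt proteins to the cell surface, read 6.58 and 6.67 in shControl DOX(-), 6.81 and 6.81 in shControl DOX(+), 8.29 and 8.28 in shHDAC2 DOX(-) and 7.01 and 7.10 in shHDAC2 DOX(+) cells. The shHDAC2 DOX(-) pair lay above all others. WLS fell by 1.23 with doxycycline in shHDAC2 cells (SE 0.106, adjusted p = 2.74e-05), and the responses differed by -1.41 (SE 0.150, adjusted p = 0.000214).

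Frizzled receptors and co-receptors had calls in both directions. With doxycycline in shHDAC2 cells 7 of 17 were higher (15.7% of all genes), 3 lower (16.1%) and 7 did not pass, with a median difference of 0.12 against -0.01 over all genes. ROR1, a Wnt5a receptor, rose by 2.02 (SE 0.139, adjusted p = 6.79e-06) and FZD2 by 1.93 (SE 0.232, adjusted p = 0.000215). LRP5, the co-receptor that DKK1 blocks and norrin uses, rose by 1.67 (SE 0.128, adjusted p = 1.34e-05), and PTK7, a co-receptor of planar polarity signalling, by 1.45 (SE 0.125, adjusted p = 2.76e-05). FZD8 fell by 1.28, FZD1 by a difference of -1.20 and LRP6 by one of -0.74. LRP5 and LRP6, close relatives in the same role, thus went opposite ways.

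All these calls use the same 2 shHDAC2 DOX(-) arrays, but not all come from that pair alone. FZD1 read 6.36 and 6.13 in shHDAC2 DOX(-) and 5.12 and 4.98 in shHDAC2 DOX(+) cells, against 5.60 to 5.74 in shControl cells. LRP5 read 6.29 and 6.44 in shControl DOX(-), 6.50 and 6.64 in shControl DOX(+), 4.35 and 4.51 in shHDAC2 DOX(-) and 6.001 and 6.21 in shHDAC2 DOX(+) cells. FZD8 was instead highest in shHDAC2 DOX(-) cells, at 7.05 and 7.23, against 5.50 to 6.03 on the other 6 arrays. Between the responses of both constructs 5 of 17 were higher (10.2% of all genes) and 3 lower (10.7%). Among them were FZD2 (1.71, SE 0.329, adjusted p = 0.00584), ROR1 (1.58, SE 0.197, adjusted p = 0.000542), LRP5 (1.46, SE 0.181, adjusted p = 0.000524) and FZD8 (-1.66, SE 0.172, adjusted p = 0.000189). The higher count was 6 with the replicate number as a block, and smaller without the first shControl DOX(-) or the second shControl DOX(+) array. Without doxycycline 4 of 17 were higher (14.2% of all genes) and 9 lower (17.2%) in shHDAC2 cells, with a median of -0.46 against 0.02 over all genes. The 4 higher became 2 without the first shControl DOX(-) or the first shHDAC2 DOX(-) array. Among the lower were FZD2 (-2.11, adjusted p = 0.000135), LRP5 (-1.93, adjusted p = 5.63e-06), ROR1 (-1.85, adjusted p = 1.29e-05) and PTK7 (-1.63, adjusted p = 1.44e-05).

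**Figure D3:**
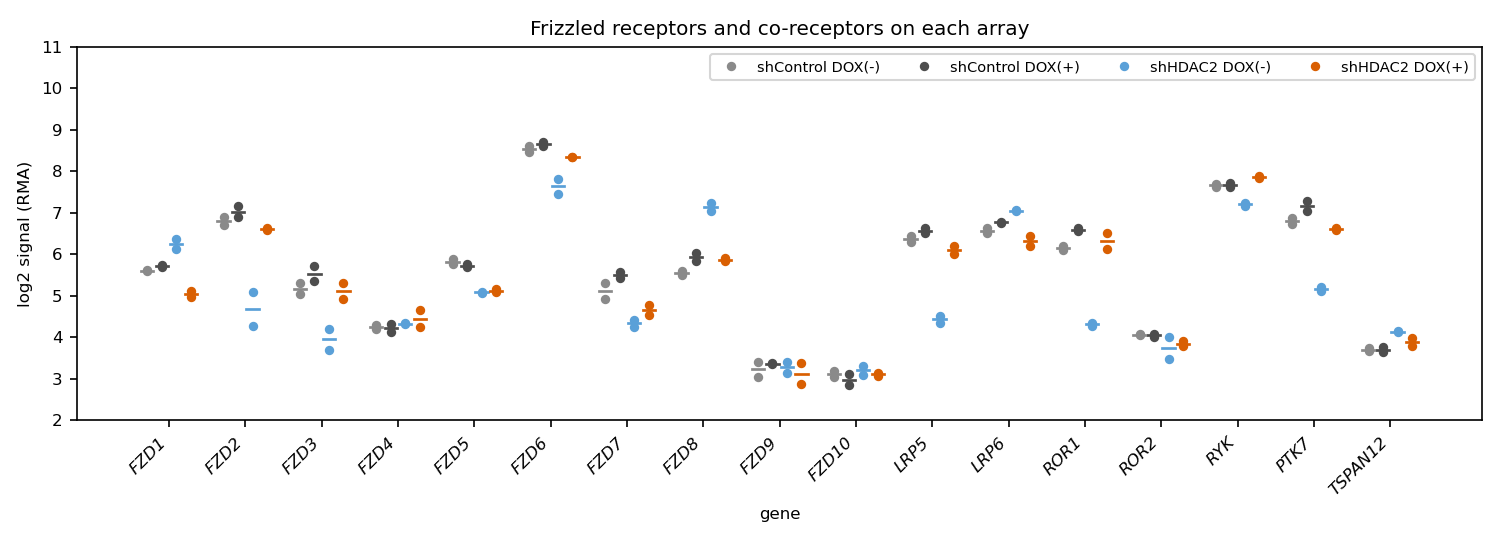
Log2 signal after RMA (vertical axis) of 17 Frizzled receptors and co-receptors (horizontal axis), with a point for each array, a bar for each group mean and a colour for each of the 4 groups. The shHDAC2 DOX(-) arrays lie lowest for LRP5 (4.35 and 4.51) and highest for FZD8 (7.05 and 7.23).

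On doxycycline the Frizzled list was the only one of the 7 with a gene past the test, 0 higher and 4 lower of 17 (0.88% and 3.35% of all genes), with a median of -0.32 against -0.01 over all genes. FZD7 was -0.84 (SE 0.156, adjusted p = 0.0204), FZD1 -0.66 (SE 0.120, adjusted p = 0.0188), FZD5 -0.60 (SE 0.107, adjusted p = 0.018) and PTK7 -0.55 (SE 0.125, adjusted p = 0.0443). FZD5 read 5.70 and 5.76 in shControl DOX(+) against 5.10 and 5.16 in shHDAC2 DOX(+) cells, and the groups did not overlap for any of the 4. These calls rest on all 4 arrays compared, since 0 of the 17 passed without any single one of them. With a variance trend and robust moderation 1 destruction complex gene was higher and 1 target gene lower as well, and a second quantile normalization also gave the former count. Without the shHDAC2 DOX(-) pair 3 of the Frizzled list passed and PTK7 did not (adjusted p = 0.0565).

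The receptor set of norrin did not follow NDP as a whole. FZD4, its receptor, read 4.13 to 4.66 over the 8 arrays and passed in no comparison. TSPAN12, the tetraspanin that aids norrin signalling, was higher in shHDAC2 cells without doxycycline (0.43, SE 0.116, adjusted p = 0.0194), at 4.14 and 4.13 against 3.75 and 3.66, but did not pass without any single array of those 4 (adjusted p = 0.0556 to 0.104). LRP5 was lower in the same comparison, as given above.

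Of 20 measured inhibitors, DKK1, DKK3 and SHISA3 rose and SFRP2 fell with doxycycline in shHDAC2 cells, and 16 did not pass, 4 of 20 called where 31.9% of all genes were. SHISA3, a relative of proteins that retain Frizzled receptors inside the cell, rose by 0.88 (SE 0.167, adjusted p = 0.00307). SFRP2, a secreted Frizzled-related protein, read 4.17 and 4.87 in shHDAC2 DOX(-) cells and 3.77 and 3.21 in shHDAC2 DOX(+) cells, against 3.42 to 3.67 in shControl cells. Its fall of 1.03 (SE 0.236, adjusted p = 0.00862) did not pass without the second shHDAC2 DOX(+) array (adjusted p = 0.0689). The difference between the responses of both constructs did not pass for SFRP2 (-0.86, limma adjusted p = 0.11). On doxycycline 0 of the 20 passed.

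In the β-catenin destruction complex, 3 of 13 measured genes rose, 1 fell and 9 did not pass with doxycycline in shHDAC2 cells, 4 of 13 called and so near the 31.9% of all genes. BTRC, the F-box protein that hands β-catenin to the proteasome, rose by 1.07 (SE 0.128, adjusted p = 0.000199), and was 0.70 lower in shHDAC2 than shControl cells without the drug (SE 0.128, adjusted p = 0.00264). AXIN1, the scaffold related to AXIN2, rose by 0.52 (SE 0.120, adjusted p = 0.00917), a call lost without the second shHDAC2 DOX(+) array (adjusted p = 0.0635). AMER1 (0.65, adjusted p = 0.0114), which brings APC to the membrane, and GSK3A (-0.42, adjusted p = 0.0191), a kinase that marks β-catenin for degradation, were lost without either of 2 arrays. They did not pass without the first shHDAC2 DOX(-) or second shHDAC2 DOX(+) array for AMER1, and without the second shHDAC2 DOX(-) or first shHDAC2 DOX(+) array for GSK3A. Between the responses of both constructs BTRC (1.19, adjusted p = 0.00162) and AMER1 (0.73, adjusted p = 0.0458) passed by limma. AXIN1 (0.54, adjusted p = 0.0546) and GSK3A (-0.21, adjusted p = 0.424) did not, and GSK3A differed by -0.21 with doxycycline in shControl cells as well. Without doxycycline 0 of the 13 were higher (14.2% of all genes) and 6 lower (17.2%) in shHDAC2 than in shControl cells. The median was -0.23 against 0.02 over all genes, and APC (-0.58, SE 0.142, adjusted p = 0.0122) was among the lower. The lower count was 5 with a second quantile normalization and 1 by the methods' t-test with Benjamini-Hochberg adjustment, which called 218 of all genes. It was also smaller without any single shControl array, most so without either shControl DOX(-) array, so the count of 6 hangs on single arrays. The gene of β-catenin itself, CTNNB1, had no cluster with a single symbol and was not analysed here.

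Of 10 TCF/LEF factors and nuclear cofactors, LEF1 and TBL1X fell, PYGO2 rose and 7 did not pass with doxycycline in shHDAC2 cells, 3 of 10 called and again near the 31.9% of all genes. TBL1X, part of a corepressor complex, fell by 0.90 (SE 0.201, adjusted p = 0.00754), a call lost without the first array of either shHDAC2 group (adjusted p = 0.0515 and 0.0621). PYGO2, a cofactor of β-catenin, rose by 0.40 (adjusted p = 0.0459) and did not pass without either shControl DOX(-) array, the second shHDAC2 DOX(-) array or either shHDAC2 DOX(+) array. LEF1 passed without each of the 8 arrays in turn. For TBL1X (-0.89, limma adjusted p = 0.0562) and PYGO2 (0.39, adjusted p = 0.193) the difference between the responses of both constructs did not pass.

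For the described targets of the pathway the counts were near the share of all genes. With doxycycline in shHDAC2 cells 3 of 18 rose (DKK1, BMP4 and SOX9), 3 fell (LEF1, RNF43 and CD44) and 12 did not pass, near the 15.7% and 16.1% of all genes, with a median difference of -0.08 against -0.01 over all genes. BMP4, a ligand of the BMP pathway, rose by 0.99 (SE 0.122, adjusted p = 0.000257), and SOX9, a transcription factor of progenitor cells, by 0.60 (SE 0.122, adjusted p = 0.00447). CD44, the hyaluronan receptor, fell by 0.69 (SE 0.112, adjusted p = 0.00131). AXIN2, NKD1, NKD2, SP5, NOTUM and APCDD1, named here after their values were seen, passed in no comparison, unlike DKK1, LEF1 and RNF43 of the same list. On doxycycline 0 of the 18 passed, as for the destruction complex and the nuclear cofactors.

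Genes with profiles most like LGR5 and NDP were found by the root mean square difference over the 8 arrays, each gene centred on its own mean. For LGR5 they were GDF15 (0.450), CLDN1 (0.490), KRTAP2-3 (0.576), FLT1 (0.675) and TSPAN8 (0.679). GDF15, a stress-induced cytokine, had group means of 7.66, 7.76, 7.25 and 9.28 in the order shControl DOX(-), shControl DOX(+), shHDAC2 DOX(-) and shHDAC2 DOX(+). CLDN1, a tight junction protein, had 4.30, 4.32, 3.66 and 5.69. All 5 were highest in shHDAC2 DOX(+) and lowest in shHDAC2 DOX(-) cells, as was LGR5, and none came as close to LGR5 as the fifth gene did to NDP.

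For NDP the closest were TFPI2 (0.194), MT1L (0.212), HMGA2 (0.223), TSPAN6 (0.242) and NRN1 (0.250). TFPI2, an inhibitor of serine proteases, had group means of 6.41, 6.41, 11.2 and 6.58 in the same order. HMGA2, a chromatin protein of embryonic tissue, had 3.995, 3.94, 8.57 and 3.94, and NRN1, a neuronal membrane protein, had 4.74, 4.55, 9.22 and 4.53. Each of the 5 stood high in shHDAC2 DOX(-) cells and lower in the other groups. These genes were chosen for likeness, so no test is given.

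**Figure D4:**
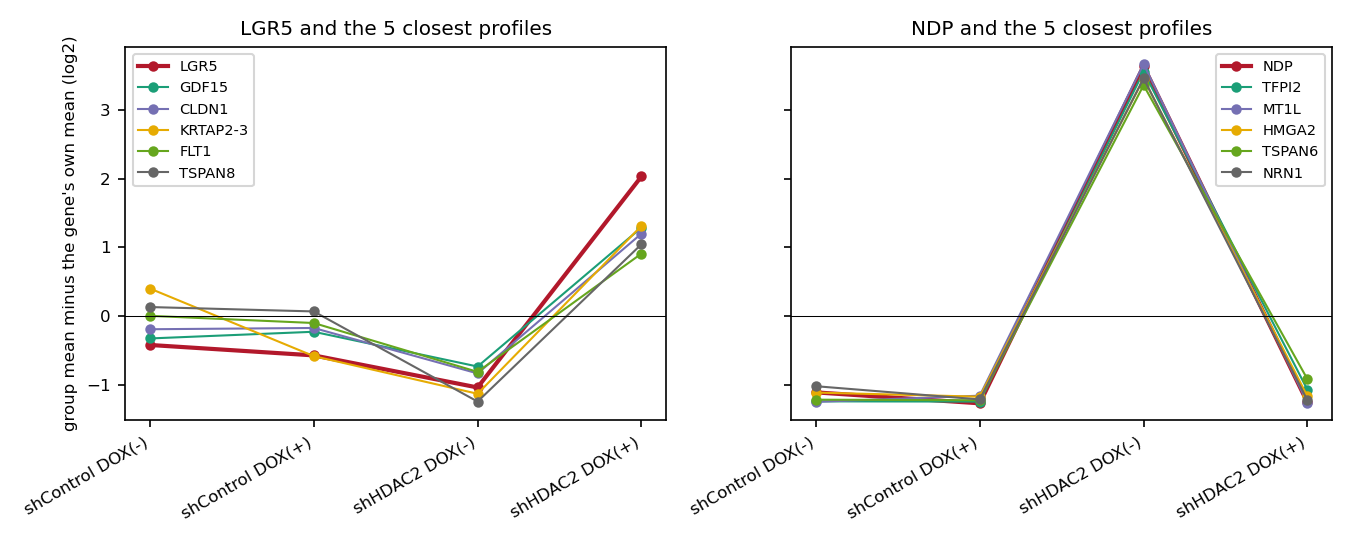
Group means of LGR5 (left panel) and NDP (right panel) with the 5 genes of closest profile, each as log2 signal minus the gene's own mean (vertical axis) over the 4 groups (horizontal axis). The LGR5 set peaks in shHDAC2 DOX(+) cells and the NDP set in shHDAC2 DOX(-) cells, where the NDP mean is 7.88 before the subtraction.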

How the data were processed

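Total RNA of 8 A172 samples was amplified, biotin-labelled and hybridised to Affymetrix Human Gene 2.0 ST arrays. The authors ran RMA in Affymetrix Expression Console, and the deposited table holds log2 signals of 53617 transcript clusters. The software versions and the build behind the annotation were "not given in the sources used here". Because RMA forces every array to one distribution, it hides any shift common to most transcripts.

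Genes were named through the platform annotation, which can be old. Of the clusters 16098 had exactly 1 symbol and 37519 had several or none and were left out. A gene with several clusters (779 genes) was read from its brightest cluster by mean, which gave 14884 genes. Limma 3.58.1 in R 4.3.3 was fitted to these log2 values, all 8 arrays together and 1 coefficient per group, leaving 4 residual degrees of freedom (prior 4.97). P-values were two-sided and adjusted by Benjamini-Hochberg over all genes, and genes under 0.05 passed. Precision is limited by the number of arrays. The 5 comparisons, which share arrays, were doxycycline within each construct, the contrast of those responses, and the constructs against each other on and without doxycycline. The steps were tested on simulated data.

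The members and lists were chosen with earlier results of these data known. The named genes were HDAC2, the 10 members, up to 4 others per list and comparison with the largest difference among those that passed, and the 5 closest profiles of LGR5 and of NDP. Other genes are named after their values were seen. Alternatives tried were blocking on the replicate number, each array left out, every row of the table, clusters at or above the median signal, a second quantile normalization, a variance trend with robust moderation, and the methods' t-test. Leaving out both shHDAC2 DOX(-) arrays was added after seeing the data.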

Additional observations from a re-analysis of the deposited data

Results flagged for a closer look

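For 5 of the 8 tested genes the doxycycline response differed between shHDAC2 and shControl cells by limma's test of the difference itself, in a comparison where 20.8% of all genes did so. The difference (shHDAC2 response minus shControl response, log2 scale) was 4.08 for DKK1 (adjusted p = 9.3e-07) and 2.96 for DKK3 (adjusted p = 8.62e-05). It was -1.71 for LEF1 (adjusted p = 0.000119), -1.64 for LGR4 (adjusted p = 0.000187) and -1.16 for RNF43 (adjusted p = 0.00981). For each of these genes the shHDAC2 DOX(-) arrays, which stood apart over all clusters, lay outside the range of the other 6 arrays.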

How the results depend on the processing

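The calls of the 8 tested genes kept direction and side of the threshold under every alternative except the methods' t-test with Benjamini-Hochberg adjustment. That test left 1 of 5 called with doxycycline in shHDAC2 cells (LEF1) and 1 of 5 without doxycycline (LGR4), among 256 and 218 genes, and 0 genes on doxycycline. It was not run for the difference between the responses. With every row kept, named or not, 7828 clusters were called with doxycycline in shHDAC2 cells, 7636 without doxycycline and 204 on doxycycline. The count on doxycycline, 629 in the main model, was 944 at or above the median signal and 1154 with a variance trend and robust moderation, which called 2 genes for doxycycline in shControl cells. With 1 array left out it ranged from 117 to 572, the lowest without the first shHDAC2 DOX(+) array. It was 118 or 121 without the first or second shControl DOX(+) array and 326 without the second shHDAC2 DOX(+) array. A lone array was assumed to vary like the other groups.

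With 1 array left out, the LGR5 difference ranged from -0.302 to -0.001 for doxycycline in shControl cells, from 3.075 to 3.376 between the responses and from 2.456 to 2.757 on doxycycline. NDP ranged from -0.400 to 0.082, from -4.982 to -4.499 and, without doxycycline, from 4.511 to 4.994. Same-numbered arrays deviated together at correlations of -0.00648 to 0.204, so the numbers were not taken to pair the arrays. With the replicate number as a block 4953, 0, 3269, 671 and 4877 genes were called in the order doxycycline in shHDAC2 cells, in shControl cells, difference between responses, on and without doxycycline, and the same number of tested members as without it. Signals near the median cluster signal, as for LGR5 and LEF1 in the low groups, RNF43 and NDP outside shHDAC2 DOX(-) cells and DKK3 within them, limit how low a level these arrays can tell apart.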

Other observations

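The measured genes nearest to LGR5 and NDP on their chromosomes, 3 on each side by RefSeq order, were looked up after the values of both were seen. TSPAN8, the measured gene next to LGR5 and one of its 5 closest profiles, is a tetraspanin of epithelial cells. It read 4.40 and 4.70 in shControl DOX(-), 4.46 and 4.51 in shControl DOX(+), 3.55 and 2.79 in shHDAC2 DOX(-) and 5.38 and 5.54 in shHDAC2 DOX(+) cells, so that its order of groups was that of LGR5. TMEM19, on the other side of LGR5, read 6.45 and 6.38, 6.53 and 6.40, 5.65 and 5.69, and 6.03 and 5.99 in the same order. It was 0.34 higher with doxycycline in shHDAC2 cells (limma adjusted p = 0.0393) but 0.46 lower in shHDAC2 than in shControl cells on doxycycline (adjusted p = 0.0491), and neither call held without any single one of the 8 arrays. Without doxycycline TMEM19 was 0.74 lower in shHDAC2 cells (adjusted p = 0.000682), a call that held without each array in turn (adjusted p = 0.00153 to 0.00799). Its difference between the responses did not pass (0.28, adjusted p = 0.246). BEST3, RAB3IP, MRS2P2 and TPH2 passed in no comparison.

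Around NDP, the monoamine oxidase gene MAOA, the next measured gene but 1, was 0.77 higher in shHDAC2 than in shControl cells without doxycycline (adjusted p = 0.000662). MAOA fell by 0.37 with doxycycline in shHDAC2 cells (adjusted p = 0.0327), while its difference between the responses did not pass (-0.41, adjusted p = 0.103). The fall did not pass without either shControl DOX(+) array, either shHDAC2 DOX(-) array or the first shHDAC2 DOX(+) array (adjusted p = 0.0526 to 0.168). MAOB, which lies between them, had group means of 2.83 to 2.97 and passed in no comparison. FUNDC1 was 0.54 lower in shHDAC2 cells without doxycycline (adjusted p = 0.00565, and 0.051 without the first shControl DOX(-) array), and EFHC2, GPR82 and DUSP21 passed in none.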
